A study of Populus x canadensis with 3 samples.

Results

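The miR472 family of poplar was measured by small RNA sequencing in roots of Populus × euramericana "Neva", a hybrid poplar, kept with or without the plant phenolic para-hydroxybenzoic acid (pHBA). The family was taken as all listed names of miR472, in any case of letters, each distinct sequence counted once, which gave 4 of 472 sequences. The 4 sequences are both strands of 2 hairpins, MIR472a and MIR472b, each listed 1 time, and no further variant of either strand was listed under these names. Rooted cuttings of this hybrid, grown in water culture for 60 days, were then kept in pHBA for 3 days. The doses on the labels are 0 mML-1 for the library called PHBA 0, 2 mML-1 for PHBA 2 and 4 mML-1 for PHBA 4, and the unit is taken to be millimolar. All were made from whole roots, and no label names a transgene or a further treatment. RNA of the same treatment was mixed before sequencing, so each dose is 1 library, no difference has a replicate check, and no p-value is given. With each distinct sequence counted once, PHBA 0 had 1434442 reads on the listed sequences, PHBA 2 had 542913, and PHBA 4 had 380800. With every table entry counted, the totals were 2358668, 823554 and 594654. Brackets hold 95% intervals that cover counting error only. The root label was not checked against marker genes, since the table holds miRNAs only.

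MicroRNAs are short RNAs that are cut as a duplex from a hairpin transcript, after which 1 strand is usually loaded into an Argonaute protein and the other is mostly lost. miR472 belongs with miR482 and miR2118 to a group of plant miRNAs that pair with transcripts of NBS-LRR genes, the intracellular immune receptors of plants, over the stretch that codes for the nucleotide-binding P-loop. Its 22 nt form can start the production of phased secondary small RNAs (phasiRNAs) from the cut transcript with the RNA-dependent RNA polymerase RDR6, and in Arabidopsis this route is known to dampen immunity to bacteria.

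The sequences below are shown because the members differ by few bases and the counts turn on telling them apart. They are written as deposited, with T for U, 5′ to 3′, and the capitals mark the seed, bases 2 to 8 from the 5′ end.
ptc-miR472a: tTTTCCCTactccacccatccc
ptc-miR472b: tTTTCCCAactccacccatccc
ptc-MIR472a-p5_1ss7TC: gGTGGGCGagcggggaagata
ptc-MIR472b-p5: gATGGGTGagtggggaagata

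The strands named ptc-miR472a and ptc-miR472b are 22 nt long and begin with T. They held no G, and 86.4% and 81.8% of their bases were C or T. They differed at 1 of 22 bases, A8T with the base of miR472b first and positions counted from the 5′ end, so the difference lies at the last base of the seed. Their seeds were therefore not shared with each other. In the whole table the seed of miR472b occurred in 1 sequence and that of miR472a in 2, the other being ptc-MIR395k-p5. From base 9 to base 22 the 2 strands were identical, a run of 14 bases.

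The opposite strands carry p5 in their names, the sign for a strand with no registered mature miRNA. Both were 21 nt long and began with G. They differed at 3 of 21 bases, A2G, T7C and T11C with the base of the MIR472b strand first. The suffix 1ss7TC of the MIR472a strand reads as 1 substitution at base 7 from the registered hairpin, where the MIR472b strand also has T. In a predicted duplex of the 2 strands, hairpin MIR472b had 18 base pairs, 1 of them G:U, and hairpin MIR472a as listed had 17, 3 of them G:U. Each strand of both duplexes ended in 2 unpaired bases at its 3′ end. With T restored at base 7, the MIR472a duplex had 18 pairs, and its predicted energy went from -23.30 to -26.10 kcal/mol, beside -26.80 for MIR472b.

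The neighbours of these sequences in the table were miRNAs that also act on NBS-LRR genes. They are shown for comparison with the same capitals.
ptc-miR482a.1_L+5: tCTTGCCTactcctcccattcc
ptc-miR1448_L+1R+1: tCTTTCCAacgcctcccatacc
ptc-miR482d-3p: tTGCCGACcccacccatgccaa
Of 82 other 22 nt sequences, ptc-miR482a.1_L+5 was among those with the fewest differences from miR472a, at 4 bases (T2C, C5G, A14T and C20T with the base of miR472a first). It differed from miR472b at 5 bases, as did ptc-miR1448_L+1R+1. None of the 3 had a seed of miR472a or miR472b. ptc-miR482d-3p matched miR472a at 7 of 22 positions when set base by base, but held the run CCACCCAT, which stands at bases 12 to 19 of both miR472 strands. Searched on both strands, that run was in 4 of 472 sequences, or 0.847%. It was picked as the longest run shared by miR472a and ptc-miR482d-3p, so those and miR472b were bound to hold it. The only other was gma-miR482a-3p_L-2_1ss14GA, so the search does not test whether the run is particular to these families. The run lies within the 14 bases that miR472a and miR472b share.

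The more abundant strands of the 2 hairpins were the most abundant sequences of the table at each dose when each sequence was counted once. ptc-miR472a had 145690.3 normalized reads without pHBA (PHBA 0), then 138076 at the lower dose and 108879 at the higher. ptc-miR472b stood at 146076, 145370.0 and 107680.5. miR472b ranked 1 and miR472a ranked 2 of all sequences in PHBA 0 and PHBA 2, and the order was turned in PHBA 4. ptc-miR166a, an HD-ZIP III regulator, stands at 12 entries with 1 repeated value. With that value taken 12 times, an alternative chosen after seeing the data, it came first in each library. In PHBA 0 it then had 647396 reads, beside 293032.5 for miR472b. The value taken once, 53949.7 in PHBA 0, was not whole. The sources used here do not say whether it is only a part of the reads. The ranks of miR472a and miR472b thus hold only for sequences counted once. The 2 levels lay close together in each library and both were lowest in PHBA 4.

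**Figure D1:**
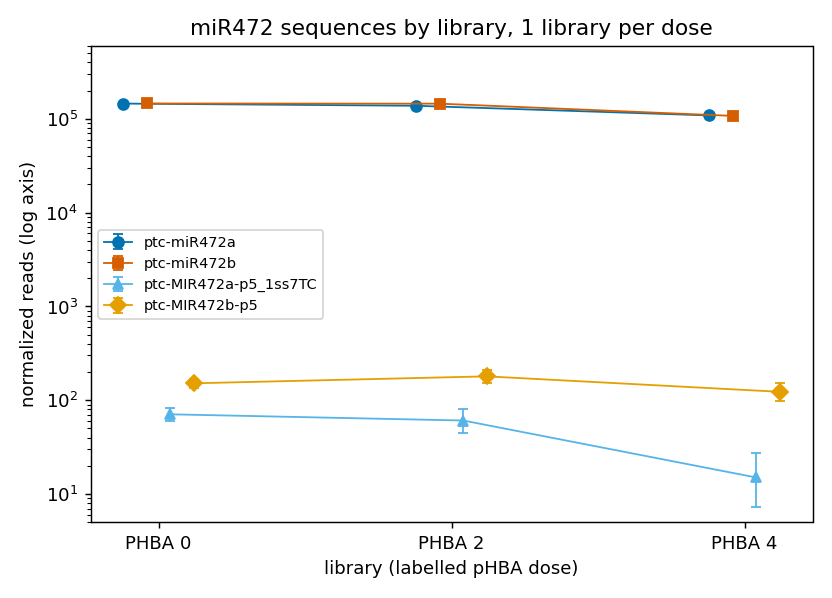
Normalized reads (log axis) of the 4 miR472 sequences in each of the 3 libraries, with bars for 95% exact Poisson counting intervals. The more abundant strands lie between 107680.5 and 146076, and ptc-MIR472a-p5_1ss7TC drops from 70.8 in PHBA 0 to 15.0 in PHBA 4.

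ptc-miR472a and ptc-miR472b together held 40.8% of PHBA 0 reads, with a Wilson interval of 40.7 to 40.9. They held 40.4% of PHBA 2 reads (40.2 to 40.5) and 37.9% of PHBA 4 reads (37.8 to 38.1). The whole family gave the same values to 3 digits, because the opposite strands added 0.0311%, 0.0343% and 0.0242%. These shares depend on how the table is summed. Some sequences of other families stand at several entries with 1 value repeated, and when every entry was counted the family share was 24.8%, 26.6% and 24.3%. The order of PHBA 0 and PHBA 2 turned between the ways of counting, while PHBA 4 was lowest in both. Reads of doubted annotations, a list of names thought to be tRNA or rRNA fragments, moved with dose too, at 0.676%, 2.08% and 3.97%. The lengths of the reads also differed in PHBA 4. Sequences under 20 nt held 0.329%, 0.670% and 3.60% of reads. Those of 22 nt, miR472 included, held 71.3%, 71.2% and 62.1%, and those of 21 nt 25.5%, 24.2% and 29.2%. Without the doubted list and without sequences under 20 nt the family share was 41.2%, 41.4% and 40.2%.

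**Figure D2:**
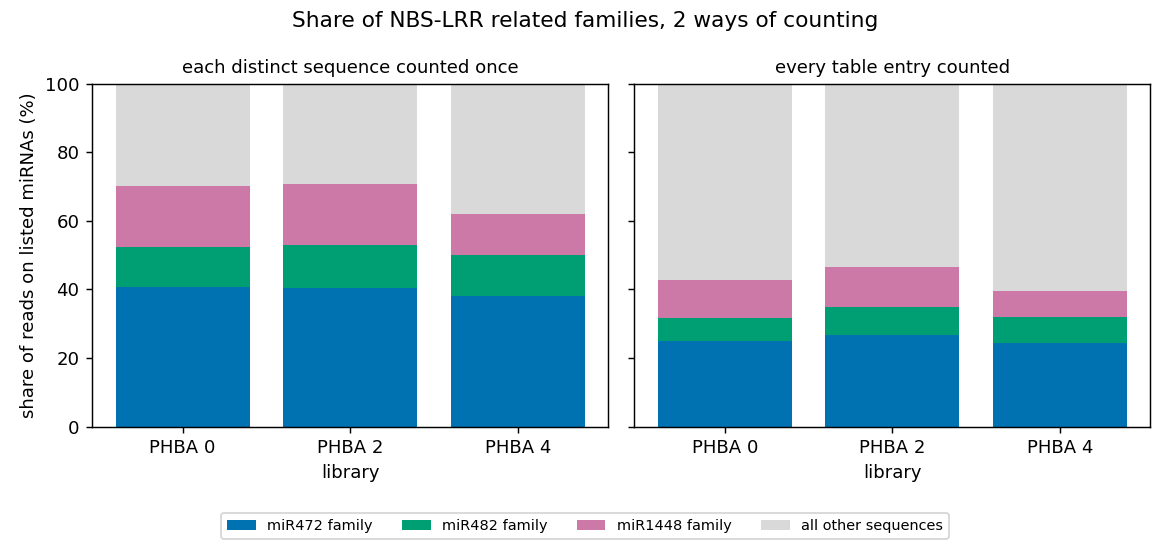
Share of reads (%) of the miR472, miR482 and miR1448 families and of all other sequences in each library, with each distinct sequence counted once (left) and every table entry counted (right). The miR472 segment is 40.8%, 40.4% and 37.9% on the left and 24.8%, 26.6% and 24.3% on the right.

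At the lower dose the summed family went from 291989 normalized reads (PHBA 0) to 283687 (PHBA 2), 1.03-fold lower (1.02 to 1.03). None of the 4 members differed at least 2-fold, a call made on log2 of the values plus 1 among 289 sequences whose mean over the libraries reached 10 normalized reads, all 4 members included. Of those 289 sequences 26.0% were called, 16.3% higher and 9.69% lower. The median log2 fold change was -0.04 over the 4 members and -0.03 over all tested sequences. miR472a was 1.06-fold lower (1.05 to 1.06). For miR472b the interval of the ratio ran from 0.988 to 1.002, and its direction flipped with libraries set to equal totals. The family sum flipped to 0.0085 on the log2 scale with equal totals after leaving out the doubted list and sequences under 20 nt, so its direction at this dose depended on the scaling. The doubted list was 3.02-fold higher in the same comparison.

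At the higher dose the summed family was lower, to an extent that depended on the scaling. It stood at 216697 normalized reads in PHBA 4, 1.35-fold lower than in PHBA 0 (1.34 to 1.36) and 1.31-fold lower than in PHBA 2 (1.30 to 1.32). These 2 comparisons share the PHBA 4 library. Against PHBA 0, miR472a was 1.34-fold lower (1.33 to 1.35) and miR472b 1.36-fold lower (1.35 to 1.37). Against PHBA 2 they were 1.27-fold lower (1.26 to 1.28) and 1.35-fold lower (1.34 to 1.36), and the value of miR472a went to 0.0004 on the log2 scale with equal totals after leaving out the doubted list and sequences under 20 nt. In log2 units the family was at -0.43 against PHBA 0 as deposited. It was at -0.11 with equal totals and at -0.04 with equal totals after leaving out the doubted list and sequences under 20 nt. The median of all tested sequences moved with these settings, from 0.01 as deposited to 0.33 and 0.40. Relative to that median the family was at -0.44 against PHBA 0 and at -0.42 against PHBA 2. A scaling shifts the family and the median together, so these differences do not test it. In whole roots fewer cells that hold a miRNA and less of it per cell cannot be told apart.

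Of the 4 members 1, ptc-MIR472a-p5_1ss7TC, was at least 2-fold lower in PHBA 4 than in PHBA 0, where 21.1% of tested sequences were called lower and 45.0% in either direction. The same 1 of 4 was called lower against PHBA 2, where 16.3% were called lower and 33.6% in either direction. The median log2 fold change of the members was -0.43 against PHBA 0 and -0.49 against PHBA 2, beside 0.01 and 0.03 over all tested sequences. Among the 289 tested sequences, 101 had a lower value than miR472a in the comparison of PHBA 4 with PHBA 0, and 98 a lower value than miR472b. The difference of the abundant strands thus lay well inside the spread of all tested sequences. That spread includes sequences with few reads, whose counting error is wider. At a mean of at least 100 normalized reads, 53 of 143 sequences were called in either direction against PHBA 0. Placement among sequences of like abundance was not examined.

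**Figure D3:**
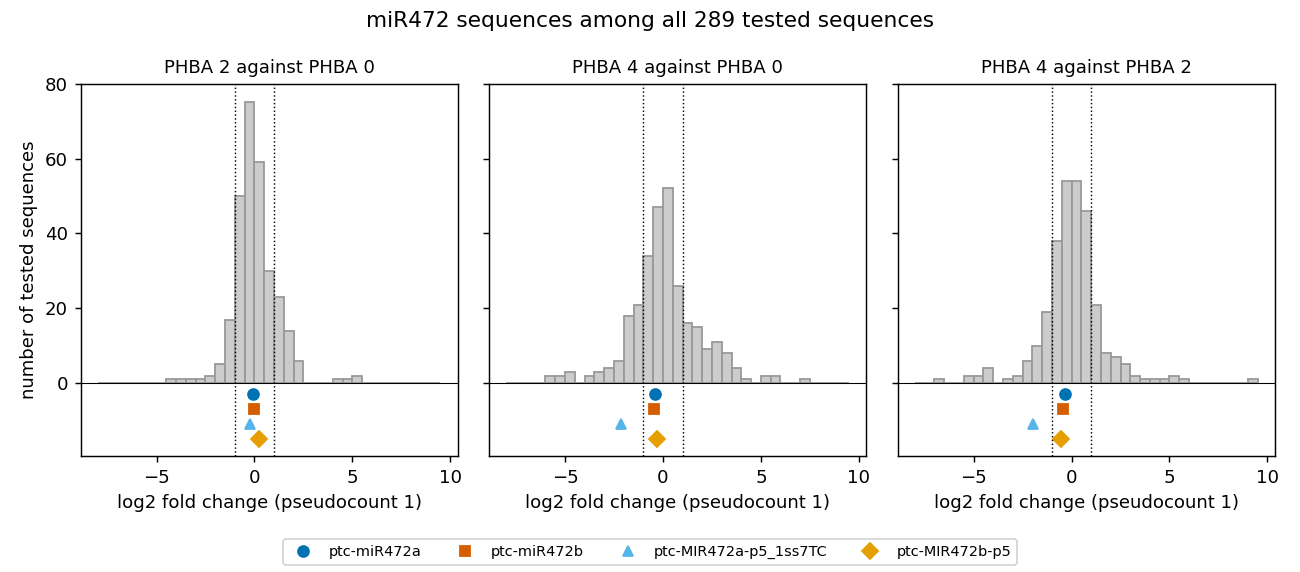
Histograms of log2 fold changes (pseudocount 1) of the 289 tested sequences in each comparison, with the 4 miR472 sequences as points below the zero line and dotted lines at 2-fold. ptc-MIR472a-p5_1ss7TC lies beyond the lower line at -2.17 in PHBA 4 against PHBA 0 and at -1.95 in PHBA 4 against PHBA 2, and the other members lie between the lines in all 3 panels.

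The balance of miR472a and miR472b within a library does not depend on how libraries are scaled. miR472a made up 49.9% of the reads of both in PHBA 0 (49.8 to 50.1), then 48.7% at the lower dose (48.5 to 48.9) and 50.3% at the higher (50.02 to 50.5). Thus the 2 sequences did not differ beyond counting error in PHBA 0, miR472b was ahead in PHBA 2, and miR472a was slightly ahead in PHBA 4. With the p5 strands added to each name, the PHBA 4 share was 50.25% (49.99 to 50.51), an interval that includes equal parts. The intervals of PHBA 2 and of the other libraries did not overlap, although with 1 library a dose the spread between root samples is unknown. The expected counts were 292258.5 and 293032.5 in PHBA 0 and 106786.5 and 112427.5 in PHBA 2. Both ended in 0.5 in the same 2 libraries, and the sums, 585291 and 219214, were whole. In PHBA 4 both were whole, at 72586 and 71787. The sources used here do not say how reads that fit both names were assigned, and the part of that step in the near-equal levels was not tested.

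The less abundant strands were balanced differently. ptc-MIR472b-p5 had 152 normalized reads at dose 0 (135 to 170), then 180 at the lower dose (151 to 212) and 123.0 at the higher (97.8 to 153). ptc-MIR472a-p5_1ss7TC stood at 70.8 (59.6 to 83.4), 60.8 (44.7 to 80.8) and 15.0 (7.19 to 27.6). The MIR472b strand was the higher of the 2 in each library. In expected counts the MIR472a strand stood at 142, 47 and 10, so the PHBA 4 value rests on few reads. It was 4.72-fold lower in PHBA 4 than in PHBA 0 (2.49 to 10.1) and 4.05-fold lower than in PHBA 2 (2.02 to 8.99). For the MIR472b strand the ratio to PHBA 0 was 0.812 (0.628 to 1.04), and its direction turned with equal totals, to 0.02 on the log2 scale, or 0.09 without the doubted list and sequences under 20 nt. Against PHBA 2 the MIR472b strand was 1.46-fold lower (1.10 to 1.94). The MIR472a strand made up 31.8% of the reads of both p5 strands in PHBA 0 (27.7 to 36.3), then 25.3% at the lower dose (19.6 to 32.0) and 10.9% at the higher (6.01 to 18.9). The PHBA 4 interval lies below those of the other libraries, which overlap.

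**Figure D4:**
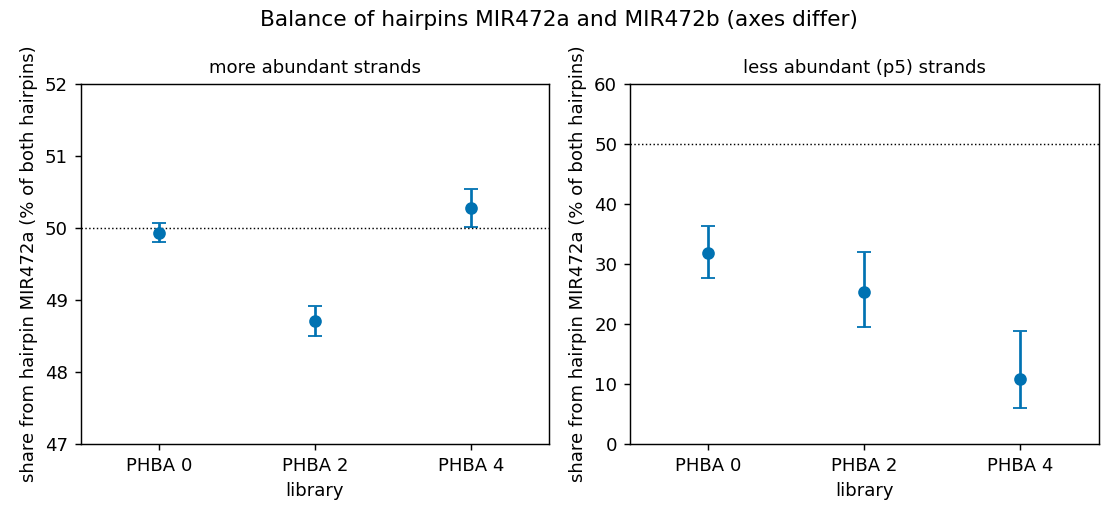
Share (%) of hairpin MIR472a in the reads of both hairpins, for the more abundant strands (left, 47 to 52%) and the p5 strands (right, 0 to 60%), with Wilson 95% intervals and a dotted line at equal parts. The left values stay within 48.7 to 50.3%, and the right values go from 31.8% in PHBA 0 to 10.9% in PHBA 4.

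Both hairpins gave nearly all their reads from 1 strand. The p5 strand took 0.0486% of the reads of hairpin MIR472a in PHBA 0 (0.0412 to 0.0572), then 0.0440% at the lower dose (0.0331 to 0.0585) and 0.0138% at the higher (0.00748 to 0.0254). For hairpin MIR472b it took 0.104% (0.0926 to 0.116), 0.123% (0.105 to 0.146) and 0.114% (0.0919 to 0.142). These shares were set beside 24 poplar hairpins that had 1 registered strand and 1 unregistered strand listed, MIR472a and MIR472b included, and whose less abundant strand averaged at least 10 normalized reads. The less abundant strand was set by the mean over the libraries, so in some hairpins it held most reads of a single library. In MIR156a, for example, it held 69.4% in PHBA 4. The median share of the less abundant strand was 6.01%, 7.92% and 10.2% over the doses. Hairpin MIR472a had the lowest share of the 24 in each library, and hairpin MIR472b ranked 2, 3 and 3 from the lowest. The minimum of 10 limits this ranking. A share this low could pass it only where the other strand was very abundant, as in miR472. Hairpins with a rarer or unlisted opposite strand were left out. From PHBA 0 to PHBA 4 the share was 3.53 times lower in MIR472a. It was lower in 15 of the 24 hairpins and higher in 9, with 3 whose ratio was below that of MIR472a, and MIR472b was among the 9.

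**Figure D5:**
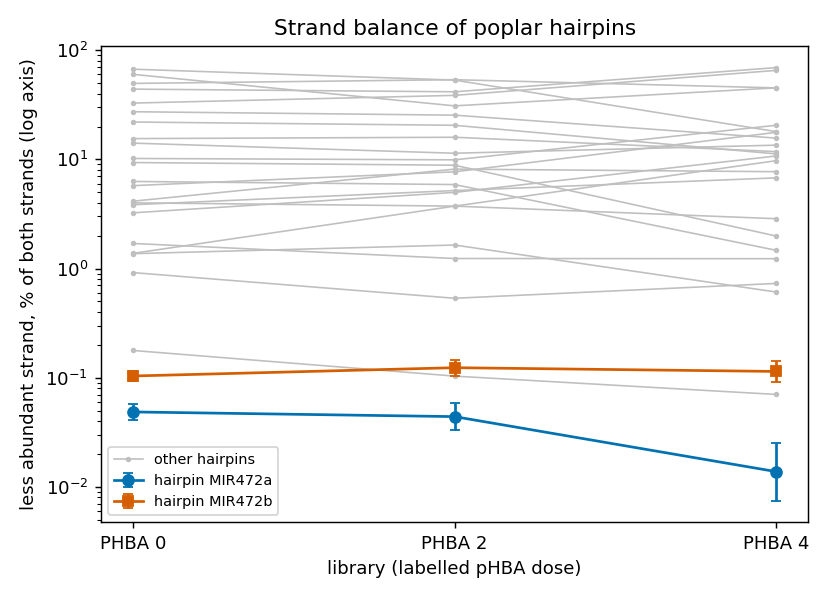
Share (%) of the less abundant strand, set by the mean over the libraries, in the reads of both strands (log axis) for 24 poplar hairpins in each library, with hairpins MIR472a and MIR472b in colour and Wilson 95% intervals on these 2. Hairpin MIR472a is the lowest line, at 0.0486%, 0.0440% and 0.0138%, and hairpin MIR472b stays between 0.104% and 0.123%.

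The miR482 and miR1448 hairpins, which also act on NBS-LRR genes, had 5′ strands with larger shares in 4 of 5 cases. For MIR482a the share of the 5′ strand was 1.63%, 1.79% and 1.40% over the doses. For MIR482d it was 9.36%, 8.84% and 1.98%, and for MIR482b 12.5%, 8.61% and 0.662%, both lowest in PHBA 4 as for MIR472a. For MIR1448 the share went the other way, from 5.75% to 7.69% and 17.7%. The MIR482c hairpin was the exception, with a 5′ strand at 0.0568% and 0.124% and listed at 0 in PHBA 4. That strand had 14 and 16 reads beside 24650 and 12939 on the other.

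Among the families that act on NBS-LRR genes, miR472 made up most of the reads at each dose. It held 58.2% of the reads of miR472, miR482 and miR1448 in PHBA 0 (58.1 to 58.3), then 57.2% at the lower dose (57.04 to 57.3) and 61.2% at the higher (61.05 to 61.4). No listed sequence was named miR2118. The higher share of miR472 in PHBA 4 went with miR1448, which held 25.5%, 25.2% and 19.3%, while miR482 held 16.3%, 17.6% and 19.4%. In PHBA 4 against PHBA 0 the summed miR1448 family was 1.87-fold lower (1.85 to 1.89), further than miR472, and miR482 was 1.19-fold lower (1.17 to 1.20) as deposited but higher with equal totals, at 0.08 on the log2 scale. The place of miR482 rests on ptc-miR482d-3p, which went from 6886 normalized reads (PHBA 0) to 16075 (PHBA 4). With it left out, again chosen after seeing the data, miR482 was 1.42-fold lower (1.40 to 1.43), further than miR472. ptc-miR482a.1_L+5, the most abundant miR482 sequence, was 1.46-fold lower (1.45 to 1.48) and ptc-miR1448_L+1R+1 was 2.14-fold lower (2.12 to 2.17). Of 13 miR482 sequences 10 were tested, with 1 higher and 3 lower at least 2-fold against PHBA 0, and of 2 miR1448 sequences 0 were higher and 1 was lower. Over all tested sequences 23.9% were higher and 21.1% lower, so the miR482 counts lie near that background.

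miR472a and miR472b made up 57.3% of 22 nt reads in PHBA 0 (57.2 to 57.4), then 56.7% at the lower dose (56.5 to 56.8) and 61.0% at the higher (60.9 to 61.2). The other 82 sequences of 22 nt, summed, were 1.58-fold lower in PHBA 4 than in PHBA 0 (1.57 to 1.59), beside 1.35-fold for miR472. That sum rests on ptc-miR1448_L+1R+1. With it left out, a choice made after seeing the data, the other 81 were 1.19-fold lower as deposited (1.18 to 1.20), less than miR472, and higher with equal totals, at 0.08 on the log2 scale. Of the 51 tested among the 82, 7 were at least 2-fold higher and 19 lower, where 23.9% and 21.1% of all tested sequences were called. Their median log2 fold change was -0.35, beside -0.42 for miR472a and -0.44 for miR472b. Families of the phasiRNA and small RNA pathways (miR162, miR168, miR390, miR393, miR403 and miR828) had 15 of 30 sequences tested. Against PHBA 0, 0 were higher and 8 lower in PHBA 4, beside 23.9% and 21.1% of all tested sequences. Their median was -1.47, beside 0.01 over all tested sequences. The doubted list was 4.69-fold higher in the same comparison (4.57 to 4.81).

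The 5 sequences whose profile over the 3 libraries lay nearest to that of the summed family were found among 140 others that averaged at least 100 normalized reads. Likeness was the Euclidean distance between log2 values of PHBA 2 and PHBA 4 against PHBA 0, and it describes 3 libraries only. The nearest was ptc-MIR396a-p3, at a distance of 0.09, with 890.1, 903 and 693 normalized reads from the lowest dose to the highest. ptc-miR482a.1_L+5 followed at 0.12, with 59538, 56943 and 40656. The others were ptc-miR172g-3p, of a family that acts on AP2-like genes, at 0.17, ptc-miR393a-5p, which acts on auxin receptor genes, at 0.18, and ptc-MIR396d-p3 at 0.19. Both miR396 names are unregistered strands of hairpins whose miRNA acts on growth-regulating factors. Of the 5, ptc-miR482a.1_L+5 alone belongs to a family that acts on NBS-LRR genes.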

How the data were processed

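Per the labels' protocols, total RNA of roots was pooled by treatment and made into Illumina small RNA libraries, 1 for each of 3 doses. The submitters' processing notes name bcl2fastq 1.8.4. The aligner, counting tool, database release and build were not given in the sources used here. The authors deposited 1 table of 673 entries with an expected count per library, which need not be whole, and a normalized signal, equal to the expected count times 0.498, 1.29 and 1.50 in PHBA 0, PHBA 2 and PHBA 4. Each distinct sequence was used once. Normalized reads were used as deposited. PHBA 4 has the fewest reads, so its low values are the least precise.

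Folds are ratios without a pseudocount, with exact conditional binomial (Clopper-Pearson) 95% intervals from counts rounded to whole reads. Shares have Wilson intervals and levels exact Poisson intervals. These cover counting error only, as each dose is 1 library. No molecular identifiers are named in the labels, so reads copied from 1 molecule would be counted apart. The 2-fold call used a pseudocount of 1 and a mean of at least 10. Duplexes were predicted with RNAduplex 2.7.2. Other steps used Python 3.11.15 and scipy 1.17.1. Calls and intervals were also run on simulated Poisson counts. Those counts hold no spread between libraries, so that run checks the calculation and not the calls in these data. Named were all miR472 sequences, the miR482 and miR1448 families and the 5 nearest profiles. Members and lists were chosen with earlier results of these data known. Other scalings, pseudocounts, minimum means and ways of counting were tried.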

Additional observations from a re-analysis of the deposited data

How the results depend on the processing

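The log2 fold change of the summed miR472 family, -0.04, -0.43 and -0.39 as deposited for the lower dose against PHBA 0, the higher dose against PHBA 0 and the higher against the lower, was -0.015, -0.11 and -0.091 with equal totals. Median-of-ratios factors gave -0.04, -0.47 and -0.43. Equal totals without the doubted list and sequences under 20 nt gave 0.0085, -0.037 and -0.045. At the deposited scaling, counting every entry cannot change it, as each member has 1 entry. With totals over every entry set equal, it would follow the every-entry shares given next. There PHBA 2 lies above PHBA 0, and PHBA 4 only slightly below PHBA 0. The family share of 40.8%, 40.4% and 37.9% became 24.8%, 26.6% and 24.3% with every entry counted, and 41.2%, 41.4% and 40.2% without the doubted list and short sequences. The share of miR472a in both abundant strands stayed within its counting interval with all sequences of each name, but in PHBA 4 the interval then included equal parts (49.99 to 50.51). Counts of sequences at least 2-fold different, 75, 130 and 97, were 191, 274 and 208 with no minimum on the mean and 31, 53 and 26 at a mean of at least 100, as more or fewer sequences were tested (472 and 143). With equal totals they were 75, 129 and 100, split into 83 higher and 46 lower for PHBA 4 against PHBA 0, beside 69 and 61 as deposited, and into 68 and 32 for PHBA 4 against PHBA 2, beside 50 and 47. Of 60 values of single miR472 sequences under other scalings and pseudocounts of 0.5 and 5, 43 stayed within their counting interval, 17 moved outside it, and 5 changed sign. Those were miR472b at the lower dose against PHBA 0 (0.020 and 0.043), ptc-MIR472b-p5 at the higher dose against PHBA 0 (0.023 and 0.092) and miR472a between the doses, all with equal totals, with or without the doubted list and short sequences. No change of pseudocount moved a value outside its interval, and at the level of the abundant strands it could hardly do so. With equal totals, with or without the doubted list and short sequences, both abundant strands moved outside in every comparison. With median-of-ratios factors they did so in both comparisons of PHBA 4. The p5 strands mostly stayed within their intervals, which are wide. Only 2 values were called at least 2-fold, both of ptc-MIR472a-p5_1ss7TC, and neither changed sign. miR472a in PHBA 4 against PHBA 2, at -0.34 as deposited, came to 0.0004 with equal totals without the doubted list and short sequences. No paired analysis was possible because each dose is 1 library. Depth limits the p5 strand of hairpin MIR472a most, with 10 reads in PHBA 4.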
